A study of Mus musculus with 80 samples.

Results

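Axon guidance molecules are the ligands and receptors by which a growing axon reads its surroundings, and they were described here in single medium spiny neurons (MSN), the projection neurons of the striatum. The members were chosen by symbol: every listed gene named as a semaphorin, plexin, neuropilin, Eph receptor, ephrin, Slit, Robo, netrin, netrin-G, Unc5 receptor or Dcc, with 1 name left out by the rule. This gave 62 members among 25160 listed genes. Of 70 family names looked for, 60 were found, and 2 antisense transcripts of Plxna4 matched by their names.

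The samples were single cells, sorted from the dorsomedial striatum of adult female mice heterozygous for the BAC transgenes Drd1a-TdTomato and Drd2-EGFP (Drd1a-TdTomatohet;Drd2-EGFPhet), so that both groups shared both reporters, and the region had been marked with an injected nuclear dye and ink. A total of 40 cells were collected by the Drd1 reporter (D1 MSN, direct pathway) and 40 by the Drd2 reporter (D2 MSN, indirect pathway), and the sample titles placed them on 3 plates. The paper reports usable data from most but not all of the cells it tried to sequence. The labels do not mark the others, and every listed cell was used here. Drd2-EGFP also marks cholinergic interneurons, and 2 Drd2 cells with more than 100 TPM of Chat, the enzyme that makes acetylcholine, were kept apart, which left 38 D2 MSN and 78 MSN in all. The values were TPM, a level per gene length relative to the total of the cell, which does not show the sequencing depth of each cell.

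Semaphorins signal through plexins, often with neuropilins as co-receptors, whereas ephrins bind Eph receptors on a touching cell and both partners can signal. Slits act through Robo receptors, and netrins act through Dcc, which mostly attracts, and the Unc5 receptors, which mostly repel. In the forming striatum these families sort axons of the cortex, thalamus and midbrain and separate striatal compartments, and many of them are retained at adult synapses.

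The labels named no animal, so each group counted as 1 sample and no difference between D1 and D2 MSN could be tested. Differences are therefore given as a log2 fold of the group means (mean TPM plus 1, D1 over D2 MSN) with the same fold within the large plates FACS051_5 (18 D1 and 16 D2 MSN) and FACS086_4 (21 D1 and 19 D2 MSN). A cell was counted as holding a gene at more than 1 TPM, and shares of cells are given with 95% exact (Clopper-Pearson) intervals, which hold counting error alone. Drd1 was found in 38 of the 40 D1 and 3 of the 38 D2 cells, and Drd2 in 2 and 26. The summed level of 8 MSN markers had medians of 3420 TPM (D1 MSN) and 3996 TPM (D2 MSN), and the 6 cholinergic markers did not exceed 14.7 TPM in any MSN. The D1 cell in well D04 of plate FACS051_5 stood apart with 13081 TPM of astrocyte markers, 447 TPM of oligodendrocyte markers and 134 TPM of MSN markers. The D1 cell in well B02 of FACS086_4 had 648 genes above 1 TPM and 4.09 TPM of MSN markers, and that in well C06 of FACS051_5 had 3713 TPM of D2 MSN markers, where the D1 median was 11.9 TPM. Of the D2 MSN, those in well C05 of FACS086_4 and well A12 of FACS086_9 had 1083 and 1218 TPM of D1 MSN markers (median 18.1 TPM). All 5 were kept, and without them the same 6 and 4 members passed the fold described below and the same 2 the share.

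Most guidance genes were held by a minority of these adult neurons. Among the 62 members, 5 were held by 50% of the MSN or more, 17 by 25% to under 50%, 14 by 10% to under 25%, and 26 by under 10%, of which 3 were held by no MSN. By mean level over the MSN the leading members were Epha7, Robo2, Slit3, Efnb3 and Plxna2, and 13 members averaged at least 10 TPM. Every member was listed at 0 in at least 1 D1 MSN and 1 D2 MSN, so that the ranges of the groups overlapped for all 62. A 0 in these files cannot be told from a transcript that was missed.

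**Figure D1:**
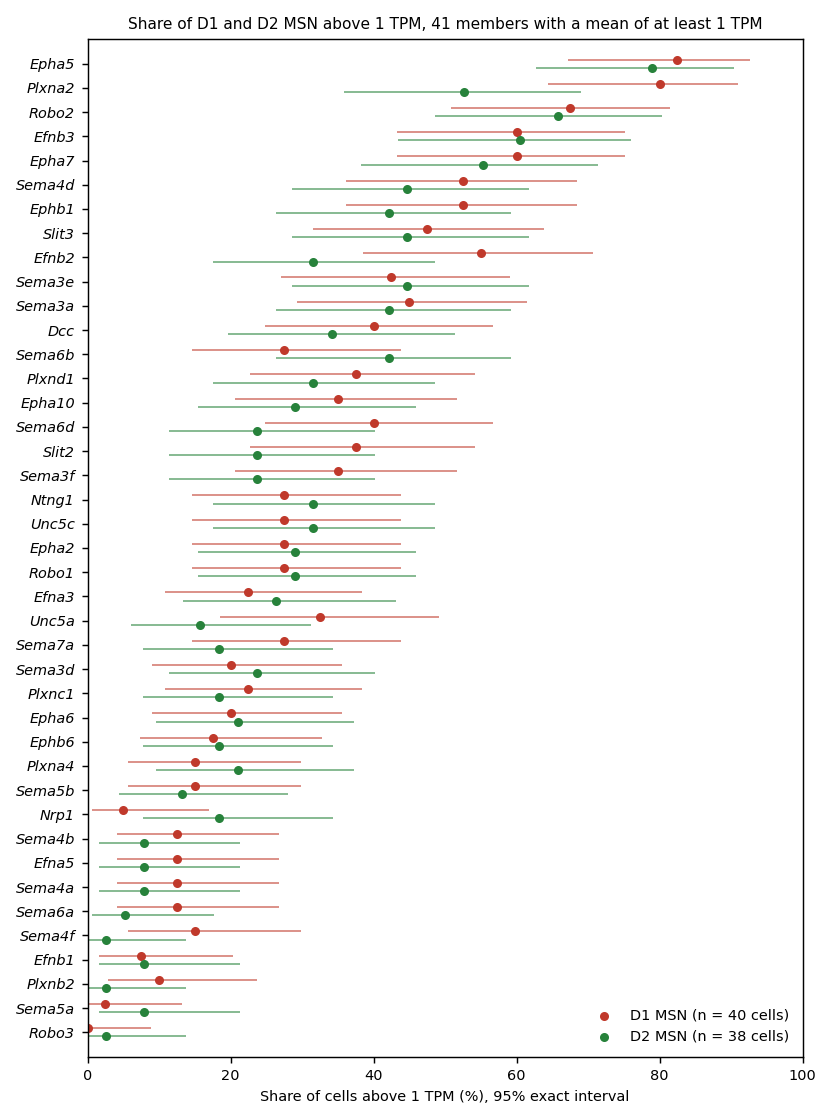
Share of cells above 1 TPM (x axis, percent, with exact 95% intervals) for the 41 members whose mean reached 1 TPM (y axis), in 40 D1 MSN (red) and 38 D2 MSN (green). Epha5 and Plxna2 were the most widely held in D1 MSN, and Plxna2 and Efnb2 show the widest gaps between the subtypes.

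A D1 MSN held between 2 and 24 members (median 14) and a D2 MSN between 0 and 21 (median 13). This count went with the number of all genes found in the cell, which had a median of 5722 in D1 MSN and 4927.5 in D2 MSN. Across cells, Pearson's r between members and all genes found was 0.88 in D1 MSN and 0.85 in D2 MSN, as a description over 40 and 38 cells whose 2 counts share a library. The median D1 MSN held 22.6% of the members and 22.7% of all listed genes, and the median D2 MSN held 21% and 19.6%. Shares of cells below are therefore to be read beside the genes found, which on plate FACS051_5 were fewer in D1 MSN (median 5109) than in D2 MSN (5923) and on plate FACS086_4 more (5730 and 4617).

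**Figure D2:**
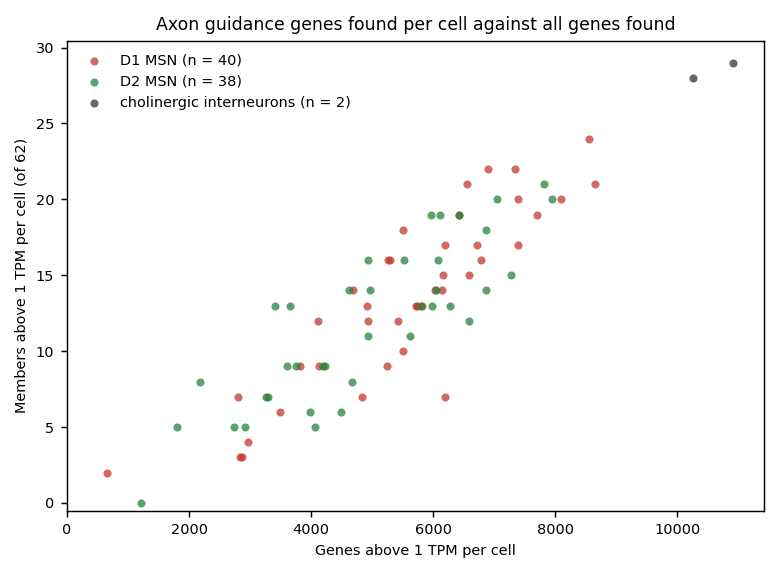
Number of the 62 members above 1 TPM (y axis) against all genes above 1 TPM (x axis) in each of 40 D1 MSN (red), 38 D2 MSN (green) and 2 cholinergic interneurons (black). Cells with more genes found held more members, and the cholinergic interneurons sit at the upper end with 28 and 29 members.

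The differences between the subtypes were spread around 0. A mean of 1 TPM over all MSN was reached by 41 members, and their median log2 fold was 0.06, beside 0.09 over the 15671 genes that passed the same minimum. The other 21 members were too low to enter. A log2 fold of at least 1 with the same direction on both large plates was reached by 6 members toward D1 MSN (14.6%, where 13.1% of all such genes did) and by 4 toward D2 MSN (9.76%, where 8.22% did). These shares lie near those of all genes. The direction differed between the large plates for 19 of the 41 members (46.3%), and for 44.8% of all genes. The share of cells was at least 20 percentage points higher in D1 MSN for 2 members, Plxna2 and Efnb2 (4.88%, against 4.48% of all genes), and in D2 MSN for 0 members (0.632% of all genes).

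**Figure D3:**
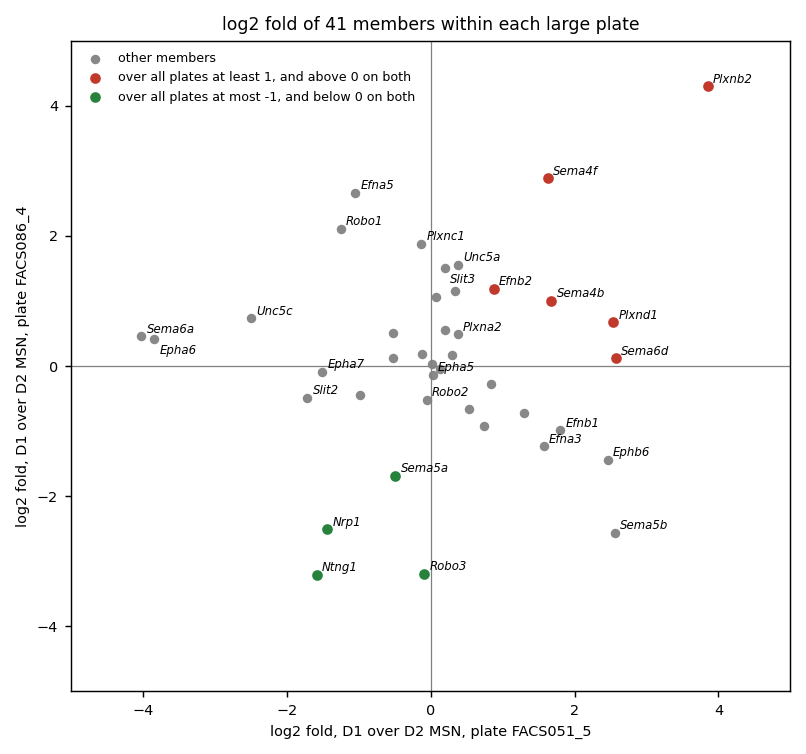
The log2 fold between D1 and D2 MSN of 41 members on plate FACS051_5 (x axis) against plate FACS086_4 (y axis). Coloured points reached a log2 fold of at least 1 over all plates with the same direction on both, and 19 of the 41 points lie in the quadrants where the plates differ in direction.

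Plxna2, a plexin that receives class 3 and class 6 semaphorins, had the widest gap in the share of cells. The D1 MSN that held it were 32 of 40 (80%, 64.4% to 90.9%), and the D2 MSN were 20 of 38 (52.6%, 35.8% to 69.0%). Its level ran from 0 through a median of 8.73 to 200.4 TPM in D1 MSN and from 0 through 1.99 to 221 TPM in D2 MSN. The means were closer, at 30.8 and 25.4 TPM (log2 fold 0.27, and 0.37 and 0.49 within the large plates), and among the cells that held it the medians were 18 TPM (D1) and 31.4 TPM (D2). The gap had the same direction within both plates, with 13 of 18 D1 and 8 of 16 D2 cells on FACS051_5, where D2 MSN had more genes found, and 18 of 21 and 11 of 19 on FACS086_4. It depended on the limit, being 27.4 points above 1 TPM, 18.6 above 10 TPM and 3.29 above 0 TPM. In cells with at least 4000 genes found it was 36.2 points. Plxna2 lies on chromosome 1 at 194618218 to 194816869 (mm10/GRCm38, plus strand, GENCODE M21).

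The genes whose level followed Plxna2 most closely over the 78 MSN, among 7768 genes above 1 TPM in at least 25% of them, were 4932438A13Rik (Spearman's rho 0.59), Tiam2 (0.56) and Kcnq1ot1 (0.54). Among the members it was Robo2 (0.48), Sema3a (0.36) and Epha5 (0.34). These correlations are descriptions over cells that also differ in the number of genes found.

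The other plexins were carried by fewer cells. Plxnd1, the receptor of Sema3e, was held by 15 D1 MSN (37.5%) and 12 D2 MSN (31.6%), and its median was 0 TPM in both groups. Its highest values were 215 TPM (D1 MSN) and 113 TPM (D2 MSN), and these cells held 38.4% and 56.4% of the summed level of their group. The means of 14 and 5.29 TPM gave a log2 fold of 1.25 (2.54 and 0.67 within the large plates), which fell to 0.65 without the highest D1 cell (well C07 of FACS086_4) and was also under 1 without the cell in well B03 of FACS051_5. Among the cells that held it the medians were 8.12 and 6.12 TPM.

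Plxnb2, a receptor of class 4 semaphorins, had the largest log2 fold of the 41 members on this scale, at 4.09 (3.85 and 4.30 within the large plates). Its size depended on the scale, with 6.76 at a pseudocount of 0.1 TPM, 1.43 at 10 TPM and 0.49 as a difference of mean log2 values, where it was under Efnb2 (1.33) and Plxna2 (1.15). It rested on 4 of 40 D1 MSN, of which the highest held 426 TPM (62.5% of the sum) and the next 241 TPM, against 1 of 38 D2 MSN with a highest value of 1.66 TPM. By plate, 1 of 18 D1 and 0 of 16 D2 cells held Plxnb2 on FACS051_5, and 3 of 21 and 1 of 19 on FACS086_4. With the highest cell of each group left out the fold was 2.90. That highest D1 cell also had 152 TPM of summed endothelial markers, the highest among D1 MSN, where the median was 32 TPM, and the part of this in the result was not tested. Plxnb2 lies on chromosome 15 at 89155549 to 89180788 (minus strand). Plxnc1, the receptor of Sema7a, was above 1 TPM in 9 D1 and 7 D2 MSN with means of 10.2 and 5.19 TPM, and the plates differed in direction (-0.13 and 1.88). Plxna4, whose reads cannot be told from those of its antisense transcripts because the strand setting of the counting is not stated, averaged 1.37 and 1.43 TPM. Summed over the 8 plexins, the means were 75.3 TPM per D1 cell and 37.5 TPM per D2 cell. The log2 fold of these sums was 0.99 (1.04 and 1.15 within the large plates), and Plxnb2 and Plxnd1 made up most of the gap.

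Neuropilins were sparse. Nrp1, the co-receptor of Sema3a, was held by 2 of 40 D1 MSN (5%) and 7 of 38 D2 MSN (18.4%). Its level ran up to 32.6 TPM (D1 MSN) and 113 TPM (D2 MSN), with a median of 0 in both and means of 1.56 and 9.39 TPM (log2 fold -2.02, and -1.44 and -2.51 within the large plates). Without the cell that weighed most the fold was -1.57, and as a difference of mean log2 values it was -0.71. Nrp2 was above 1 TPM in 1 cell of each subtype, at most 1.65 TPM. Nrp1 lies on chromosome 8 at 128358604 to 128503363 (plus strand).

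Among the secreted class 3 semaphorins, Sema3a and Sema3e led. Sema3a, which repels many axons, was above 1 TPM in 18 D1 MSN (highest 159 TPM, mean 19.9) and 16 D2 MSN (highest 225 TPM, mean 25.9), and its direction differed between the large plates (0.74 and -0.92). Sema3e was above 1 TPM in 17 cells of each subtype, with medians of 0.453 and 0.599 TPM and means of 10.8 and 17.3 TPM (log2 fold -0.63, and -0.98 and -0.44 within plates). Sema3f was held by 14 D1 and 9 D2 MSN and Sema3d by 8 and 9.

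Of the 13 membrane-bound semaphorins, Sema4d was the most widely held. In D1 MSN it ran from 0 through a median of 2.15 to 129 TPM and 21 of 40 cells held it, and in D2 MSN it ran from 0 through 0 to 56.5 TPM and 17 of 38 cells held it. Its means were 12.3 and 7.66 TPM (log2 fold 0.62, and 0.34 and 1.15 within plates). Sema6b was held by more D2 than D1 MSN, 16 of 38 against 11 of 40. By plate, 5 of 18 D1 and 9 of 16 D2 cells held Sema6b on FACS051_5, and 6 of 21 and 6 of 19 on FACS086_4. The means of Sema6b were close, at 6.68 TPM (D1) and 6.94 TPM (D2), with a log2 fold of -0.05. Sema6d was above 1 TPM in 16 D1 and 9 D2 MSN with means of 12.6 and 5.40 TPM (1.08, and 2.57 and 0.12 within plates). Leaving out the highest D1 cell, at 187 TPM (well C07 of FACS051_5), lowered this fold to 0.51, and 4 cells taken out in turn each brought it under 1. That cell also had 325 TPM of summed markers of other interneurons, the highest among D1 MSN (median 0), whose part was not tested. The others were those in wells B06 and B08 of FACS086_4 and the D1 cell in well D04 with astrocyte markers, at 54.5 TPM, without which the fold was 0.96. Without all 5 cells that stood apart by their markers it was 2.21. These 5 include the highest D2 cell (well C05 of FACS086_4), whose 139 TPM was 67.8% of the sum of its group. The fold was 2.28 without that D2 cell alone.

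Sema4f was held by 6 of the D1 and 1 of the D2 MSN. Its highest values were 77.8 and 1.64 TPM, and its means 4.72 and 0.0577 TPM (log2 fold 2.44, and 1.63 and 2.89 within plates), with 1.86 left when the highest cell was removed and 0.64 as a difference of mean log2 values. Its highest D1 cell also had 137 TPM of summed endothelial markers, whose part was not tested. Sema4b was held by 5 D1 and 3 D2 MSN with means of 2.66 and 0.431 TPM (1.35, and 1.68 and 1.0 within plates), and its fold was 0.75 without the D1 cell at 51.6 TPM, the same cell that was highest in Sema6d, and also under 1 without the cell in well D11 of FACS086_4. Sema5a was above 1 TPM in 1 D1 and 3 D2 MSN (log2 fold -1.01), and its fold was -0.57 without the cell in well C09 of FACS086_4 and also nearer to 0 than -1 without that in well B11 or that in well C12 of FACS051_5. Sema6a had a fold of -2.85 that came from 1 D2 cell with 403 TPM, 98.9% of the sum of its group, while 5 D1 and 2 D2 MSN were above 1 TPM. Sema5b, with 6 D1 and 5 D2 MSN, was 2.56 on one large plate and -2.56 on the other. Sema5a, Sema5b, Sema6a and Sema6b were picked for mention with their values known.

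**Figure D4:**
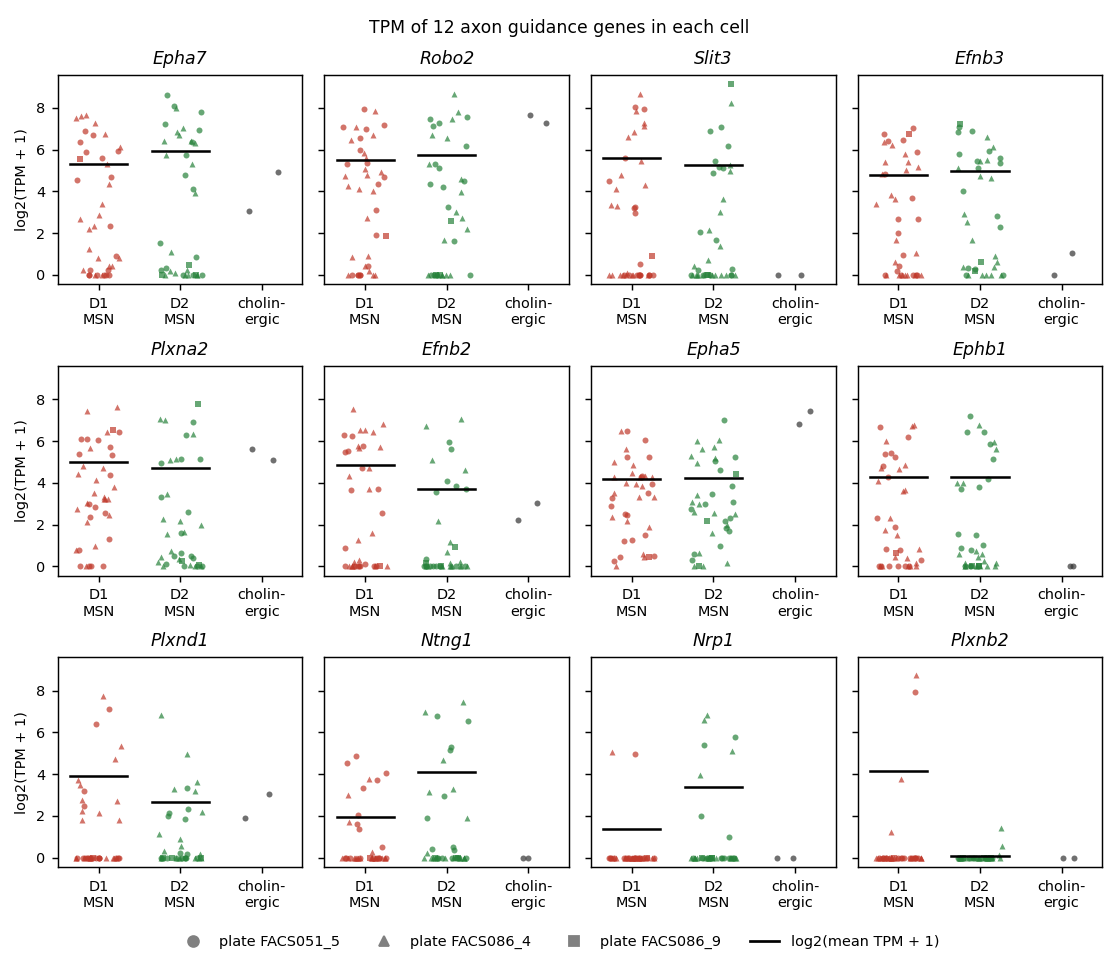
Level of 12 members in each cell (y axis, log2 of TPM plus 1) in 40 D1 MSN, 38 D2 MSN and the 2 cholinergic interneurons. The marker shape gives the plate, and the black bar is the log2 of the group mean TPM plus 1, not the mean of the log2 values. Cells of both subtypes spread from 0 upward for each gene, and the Plxnb2 and Nrp1 means rest on a few high cells.

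Ephrin-B ligands were common. Efnb3 was above 1 TPM in 24 D1 MSN (median 5.41, highest 132 TPM) and 23 D2 MSN (median 6.33, highest 151 TPM), with means of 26.4 and 31 TPM. Its log2 fold was -0.22, with the large plates in opposite directions (-0.52 and 0.12). Efnb2, which lies on chromosome 8 at 8617434 to 8661242 (minus strand), differed more. Among D1 MSN 22 of 40 held it (55%, 38.5% to 70.7%), and among D2 MSN 12 of 38 (31.6%, 17.5% to 48.7%). Its level ran from 0 through 3.44 to 186 TPM in the former and from 0 through 0 to 132 TPM in the latter, with means of 28.2 and 12.2 TPM. The log2 fold was 1.15 (0.87 and 1.18 within the large plates), and 0.93 without the highest D1 cell (well C01 of FACS086_4). The gap of 23.4 points in the share was 12.5 points on FACS051_5 and 30.3 on FACS086_4, and 12.2 points in cells with at least 4000 genes found. Efnb1 was held by 3 cells of each subtype. Of the ephrin-A ligands, Efna3 was above 1 TPM in 9 D1 and 10 D2 MSN and Efna5 in 5 and 3, and both differed in direction between the plates.

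Eph receptors were present in nearly every cell, and 37 of 40 D1 and 36 of 38 D2 MSN held an EphA receptor. Epha5, which guides topographic maps, was the member held by the most cells: 33 D1 MSN (0 through 10.5 to 89.6 TPM) and 30 D2 MSN (0 through 6.37 to 128 TPM). Its means were close, at 17.4 and 17.8 TPM (log2 fold -0.03, and 0.03 and -0.13 within plates). Epha7 had the highest mean of all members but a lower share of cells. It was found in 24 D1 MSN (0 through 4.81 to 204 TPM, mean 39.1) and 21 D2 MSN (0 through 8.05 to 397 TPM, mean 60.7). Its fold of -0.62 came from plate FACS051_5 (-1.51) more than from FACS086_4 (-0.09).

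Ephb1, a receptor of the ephrin-B ligands, was held by 21 D1 MSN (median 2.11, highest 107 TPM) and 16 D2 MSN (median 0.592, highest 144 TPM), with means of 18.7 and 18.5 TPM and a log2 fold of 0.02. This fold joined opposite directions on the large plates (-0.53 and 0.50), and the shares of cells differed in direction too. On FACS051_5 9 of 18 D1 and 11 of 16 D2 cells held it, and on FACS086_4 12 of 21 and 5 of 19. Ephb6, which lacks kinase activity, had means of 23.9 and 23.4 TPM that came from 7 cells of each subtype, and the large plates went in opposite directions (2.46 and -1.44). Epha2 and Epha6 were each above 1 TPM in equal numbers of D1 and D2 MSN, 11 and 8. Ephb2 and Ephb3 averaged under 1 TPM.

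Robo2 and Slit3 were the leading pair of the Slit family. Robo2 was above 1 TPM in 27 D1 MSN (0 through 18.6 to 249.6 TPM, mean 44.6) and 25 D2 MSN (0 through 7.81 to 411 TPM, mean 51.9), with a log2 fold of -0.21 (-0.06 and -0.52 within plates). Slit3, a ligand of Robo2, was above 1 TPM in 19 D1 and 17 D2 MSN, with medians of 0.664 and 0.288 TPM and highest cells at 409 and 565 TPM (log2 fold 0.31, and 0.20 and 1.5 within plates). Slit2 was held by 15 D1 and 9 D2 MSN, but its means went the other way. They were 4.87 and 9.01 TPM (log2 fold -0.77, and -1.72 and -0.49 within plates), and 1 D2 cell at 212 TPM held 61.8% of the sum of its group. Slit1 was above 1 TPM in 2 D1 MSN, at most 6.80 TPM, and each of the 38 D2 MSN had it at 0, for which the exact interval allows a share of up to 9.25%. Robo1 was above 1 TPM in 11 cells of each subtype, with plates in opposite directions (-1.25 and 2.11). Robo3 reached its fold of -2.36 through 1 D2 cell at 157 TPM (well A12 of FACS086_4), 99.4% of the sum of its group, and the fold was -0.02 without it.

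A ligand and a receptor or co-receptor were looked for in the same cell for 17 pairs. Of these, 11 were found together in more MSN than the product of their shares gives and 11 in under 16% of the MSN. Slit3 and Robo2 were both above 1 TPM in 27 of 78 MSN, where the product of their shares gives 24, Slit2 and Robo2 in 20 (16), Sema3a and Plxna2 in 27 (22.7), and Efnb3 and Ephb1 in 25 (22.3). Sema3a was found with its co-receptor Nrp1 in only 5 MSN (3.92), so most cells with Sema3a and Plxna2 did not hold Nrp1. Sema3e and Plxnd1 were found together in 10 MSN (11.8), Slit3 and Robo1 in 10 (10.2), Efnb3 and Ephb6 in 6 (8.44), Efna5 and Epha7 in 4 (4.62), Sema4d and Plxnb2 in 1 (2.44), and Ntn1 and Dcc in 0 (0.372). These counts are descriptions without a test, over cells that differ in the number of genes found. No pairs of other genes are given beside them, so 11 of 17 cannot be read as particular to guidance genes.

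Netrins were hardly found in MSN while their receptors were. A level above 1 TPM of Ntn1 was seen in 1 D1 cell of 40, with 1.04 TPM, and the gene was at 0 in every one of the 38 D2 MSN (share of up to 9.25%). Ntn4 was held by 1 D1 MSN. Dcc was above 1 TPM in 16 D1 MSN (highest 154 TPM, mean 12.1) and 13 D2 MSN (highest 196 TPM, mean 16), with plates in opposite directions (1.30 and -0.71). Unc5a was held by 13 D1 and 6 D2 MSN with means of 8.19 and 3.82 TPM (log2 fold 0.93, and 0.38 and 1.56 within plates). Unc5c was held by 11 and 12 cells with means of 1.72 and 6.12 TPM (log2 fold -1.39), and the plates went in opposite directions (-2.49 and 0.73).

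Ntng1, a membrane-anchored netrin-G that binds a partner across the synapse, differed in mean level. The shares were close over all plates, with 11 of 40 D1 and 12 of 38 D2 cells, but the large plates went in opposite directions. On FACS051_5 8 of 18 D1 and 6 of 16 D2 cells held it, and on FACS086_4 3 of 21 and 6 of 19. Over all plates, the D1 cells that held it had a median of 9.05 TPM and the D2 cells 29.4 TPM. Its highest values were 28.2 and 173 TPM and its means 2.90 and 16.4 TPM. The log2 fold was -2.16 (-1.59 and -3.21 within the large plates), and -1.76 without the highest D2 cell, which was also the cell that held Robo3. As a difference of mean log2 values it was -0.64, a scale on which 0 members passed 1 toward D2 MSN. Ntng1 lies on chromosome 3 at 109780040 to 110144011 (minus strand).

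The 2 cholinergic interneurons had 28 and 29 members above 1 TPM and 10251 and 10912 genes found, more of either than any MSN. Robo2 was at 203 and 154 TPM, within the range of MSN, and Epha5 was at 170 and 110 TPM, where the highest MSN had 128 TPM. Slit3, Ephb1 and Ntng1 were listed at 0 in both cells, as in many MSN, and Efnb3 was at 0 and 1.04 TPM. Other members were also at 0 in both cells, among them Sema3e, Nrp1, Epha2 and Plxnb2. Ntn1 (14.1 and 4.73 TPM), Ntn4 (24.8 and 4.22 TPM) and Slit1 (13.5 and 7.46 TPM) were above every MSN, whose highest values were 1.04, 1.95 and 6.80 TPM. With 2 cells from 1 plate this remains a description.

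**Figure D5:**
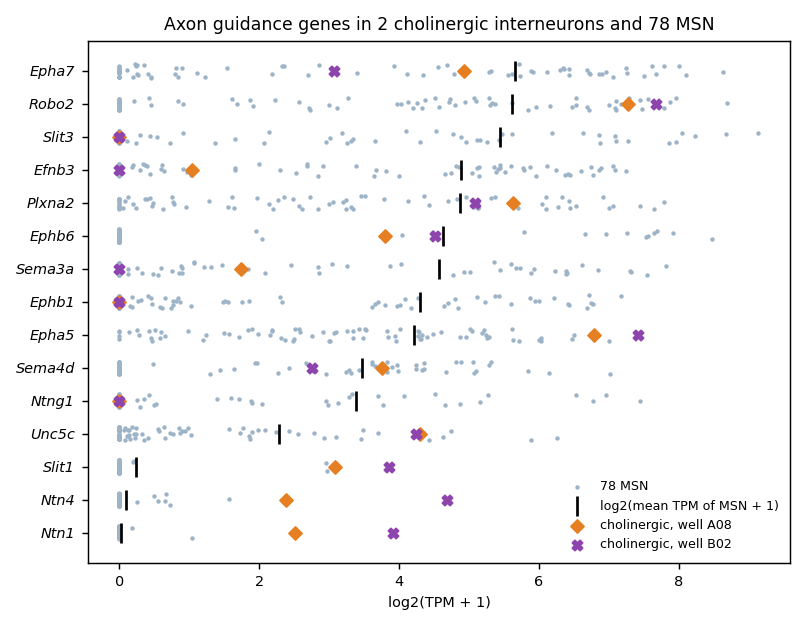
Level of 15 members (x axis, log2 of TPM plus 1) in 78 MSN (grey points, with a black bar at the log2 of the mean TPM plus 1) and in the cholinergic interneurons of wells A08 (orange) and B02 (purple). Both cholinergic cells lie to the right of all MSN for Slit1, Ntn4 and Ntn1 and at 0 for Slit3, Ephb1 and Ntng1.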

How the data were processed

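Single cells of the dorsomedial striatum were sorted by FACS and their cDNA made with the SMARTer Ultra Low Input v3 kit. The deposited values were TPM per gene and cell, made by the authors. The submitters' processing notes and methods name STAR 2.5.0, featureCounts 1.5.1 and mm10/GRCm38, and how the TPM were made from counts is not given in the sources used here. Over the listed genes the TPM of single cells added up to 506588 at the lowest and 958040 at the highest, so a value is relative to a total that differs between cells. The methods give a median depth over cells, but the TPM do not show the depth of each cell, and no limit of detection can be given. A total of 0 columns were duplicated and 0 columns of single cells were left unused.

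Groups were taken from the reporter label, and the plate and well from the sample title. The methods state that the cells came from several animals, and the labels tie no cell to one, so each group was 1 sample and no test was run. The log2 fold used a pseudocount of 1 TPM, genes entered whose mean across MSN reached 1 TPM, and 1 TPM was the limit for counting a cell. Positions came from GENCODE M21, which is on the same build. The fold calculation was tested on simulated data with Python 3.11.15, numpy 2.4.6, pandas 2.3.3 and scipy 1.17.1.

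The members, gene lists and the Chat limit of 100 TPM were chosen with earlier results of these data known. Named members averaged at least 10 TPM, or passed a log2 fold of 1 on both large plates in direction and were held by 10% or more of the higher subtype, or differed by at least 20 points in share, or have a textbook role in striatal wiring, or were above every MSN in both cholinergic interneurons. Others named are given as further members of their families. Alternatives changed the pseudocount, the mean, the scaling, the filter, the limit for a cell and the cells included.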

Additional observations from a re-analysis of the deposited data

Results flagged for a closer look

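A pattern outside the comparison of D1 and D2 MSN was seen in the 2 Drd2 cells taken as cholinergic interneurons, for which 3 members were above their level in every MSN. Slit1 was at 7.46 TPM in the lower of both cells against 6.80 TPM in the highest of 78 MSN, Ntn4 at 4.22 TPM against 1.95 TPM, and Ntn1 at 4.73 TPM against 1.04 TPM. These cells had 10251 and 10912 genes above 1 TPM, more than any MSN (at most 8657), and the part of this in the 3 levels was not tested. How many of all genes were above every MSN in both cells is not given here, so the 3 cannot be read as particular to guidance genes.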

How the results depend on the processing

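The median log2 fold of the members, 0.06, was 0.0215 with a pseudocount of 10 TPM, 0.14 on mean log2 values, 0.17 as a mean of the large plates, 0.10 with TPM rescaled to an equal total, 0.0230 with no filter, -0.0320 with a mean of at least 10 TPM, 0.10 without plate FACS086_4, 0.0197 without FACS086_9, -0.0032 without cells under 2000 genes, 0.11 with cholinergic interneurons kept, 0.36 with the highest cell of each group left out, 0.17 in cells with at least 4000 genes and 0.13 without the 5 cells that stood apart by their markers. The last 2 settings were chosen after seeing the data. Members past a log2 fold of 1, 6 toward D1 and 4 toward D2 MSN, became 1 and 1 with a pseudocount of 10 TPM, 2 and 0 on mean log2 values, 1 and 0 with a mean of at least 10 TPM, and 12 and 8 without FACS086_4, where 24.6% and 21.6% of all genes passed, since only 1 large plate was then left to set the direction. Members with a share at least 20 points higher in D1 MSN, 2 as reported, were 5 without FACS051_5 (where 15.7% of all genes were). Above 0 TPM only Sema6d passed (4.08% of all genes), and above 10 TPM only Efnb2 (2.29%). In cells with at least 4000 genes, Plxna2, Slit2 and Unc5a passed (4.94%) and Efnb2 did not. By mean level in those cells, Slit2 passed the log2 fold of 1 toward D2 MSN, as 9.33% of all genes did. Members with a share at least 20 points higher in D2 MSN were 3 without FACS086_4 (6.22% of all genes). Members per cell (medians 14 and 13) were 14.5 in D1 MSN with TPM rescaled, 12 in D2 MSN without FACS051_5, 13 in D1 MSN without FACS086_4, 20 and 18.5 above 0 TPM, 7.5 and 7 above 10 TPM, and 15 and 14 in cells with at least 4000 genes. The cause was not tested. Of 26 named members, 10 kept the sign of their fold in all 14 alternatives, and Efnb2, Plxna2, Plxnb2, Ntng1 and Nrp1 were among them. The others were Plxnd1, Sema3e, Sema4b, Sema4f and Sema6d. All of these but Plxna2 and Sema3e had passed a log2 fold of 1 with the same direction on both large plates. Their kept sign was thus largely set by that choice, and no share over all genes is given. No paired analysis was possible because the labels give the cells no replicate numbers and no test was run. The depth of each cell is unknown, so a gene listed at 0 may have been missed.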

Other observations

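The molecules that act with these ligands and receptors inside the cell or at its surface were looked at as lists. Of 81 such names, 67 had a mean of at least 1 TPM, and their median log2 fold was 0.08. A log2 fold of at least 1 with the same direction on both large plates was reached by 6 toward D1 MSN (8.96%, where 13.1% of all genes did) and 3 toward D2 MSN (4.48%, where 8.22% did). The share of cells was at least 20 points higher in D1 MSN for 8 of them (11.9%, where 4.48% of all genes were) and in D2 MSN for 0. The 8 were Acp1, Crmp1, Enah, L1cam, Nrcam, Pak1, Pick1 and Rhoa, of which only Acp1 and Pak1 also passed the fold. A mean of at least 10 TPM was reached by 46 partners, and at that mean 6.39% of all genes passed the share. D1 MSN also had more genes found (median 5722, against 4927.5 in D2 MSN), whose part was not tested.

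Adam10, a protease that sheds ephrins and other surface proteins, was above 1 TPM in 13 of 40 D1 MSN and 6 of 38 D2 MSN, with means of 19.5 and 4.28 TPM (log2 fold 1.96, and 2.32 and 1.27 within the large plates). Acp1, a phosphatase that acts on Eph receptors, was in 26 D1 and 17 D2 MSN with means of 41.3 and 17.8 TPM (1.17, and 1.56 and 0.41). In the other direction, Srgap3, which acts below Robo receptors, was in 21 D1 and 20 D2 MSN with means of 8.08 and 23.3 TPM (-1.42, and -1.55 and -1.44). Its highest D2 cell held 341 TPM, and with the highest cell of each group left out the fold was -0.93, and as a difference of mean log2 values -0.34. Abl2, a kinase of the same pathway, was in 18 cells of each subtype with means of 10.8 and 21.2 TPM (-0.91). All 4 were listed at 0 in cells of both subtypes.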
